A study of Oreochromis niloticus with 18 samples.

Results

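The data described here are the 200 transcripts of Nile tilapia (Oreochromis niloticus) that took the largest shares of the counts in the brain while averaging under 1 CPM (the usual scaling of a transcript's estimated count to the total of its library) in the liver. To be included, a transcript also had to have a mean cerebellum CPM between 0.5 and 2 times its mean thalamus-pituitary CPM, and the 200 with the highest mean over the 12 brain libraries were kept. They were drawn from 26763 transcripts, of which 5329 met the liver and region conditions. A pair of SNAP25 transcripts was left out by the rule, and neither would have been among the 200: one had a region ratio of 59.0 and the other averaged 1.30 CPM in the liver. The levels in brain and liver and the ratio of the regions therefore chose the transcripts, and they are given here as a description with no test.

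RNA was sequenced from the cerebellum, the thalamus-pituitary and the liver of sexually undifferentiated juveniles aged 4 months by the labels. The fish were left untreated (Control) or were immersed for 12 h in 25 nM of 3,5-diiodothyronine (T2) or of triiodothyronine (T3). Each of the 9 groups had 2 libraries, 18 in all; a brain library pooled 4 fish and a liver library came from 1 fish. Library totals ran from 1568851 estimated counts (Cerebellum T2 1) to 6585242 (Liver T3 1), so that 1 count was worth between 0.152 and 0.637 CPM, and the lowest count of any of the 200 transcripts in any brain library was 107. Whether the controls received the solvent of the hormones is not given in the sources used here.

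Genes that are abundant throughout the brain and silent in the liver usually serve what every brain region does: release and uptake of transmitters, ion balance, and the upkeep of axons, synapses and glia. Glutamate, the main excitatory transmitter, is cleared from the synapse by transporters of the glial membrane, so that glial cells, astrocytes in mammals and mostly radial glia in fish, are as much a part of this common equipment as neurons. Thyroid hormones act mainly through nuclear receptors that change transcription. T3 is the classical active hormone, and T2 differs from it by the absence of the iodine on the outer ring.

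The files give transcripts by Ensembl identifier, and only 2 of the 200 could be paired with a gene symbol. The pairs came from the annotation columns of supplementary gene lists that together named 1658 transcripts, all placed there because they had been grouped by their hormone response in these same samples, so the 2 named genes are not a random draw from the 200. They are SLC1A2, the glial glutamate transporter also known as GLT-1 or EAAT2 (ENSONIT00000018363, the second highest of the 200 by mean brain CPM), and MARCKSL1, which codes for a MARCKS-like substrate of protein kinase C that binds membranes and actin (ENSONIT00000009744, rank 62). The other 198 are known here by identifier alone, and no role is given to them.

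Together the 200 transcripts took a nearly even share of each brain library. Their summed level was 81544 and 83250 CPM in the Cerebellum Control libraries, 80678 and 85111 CPM in Cerebellum T2, and 76810 and 80345 CPM in Cerebellum T3. It was 83889 and 82839 CPM in Thalamus-pituitary Control, 83867 and 82445 CPM in Thalamus-pituitary T2, and 80290 and 79803 CPM in Thalamus-pituitary T3. Expressed as a share of the library, these sums lay between 7.68% and 8.51%. In each region both T3 sums were below both Control sums, whereas the T2 and Control sums overlapped in each.

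The mean over the 12 brain libraries ran from 2426 CPM (ENSONIT00000006241) down to 187 CPM (ENSONIT00000018887), with a median of 320 CPM. Of the 200, 9 averaged at least 1000 CPM, 40 at least 500 CPM and 92 under 300 CPM, and the 10 highest made up 16.3% of the summed level. These shares are not divided by transcript length, so a rank says how many reads a transcript took and not how many molecules there were.

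**Figure D1:**
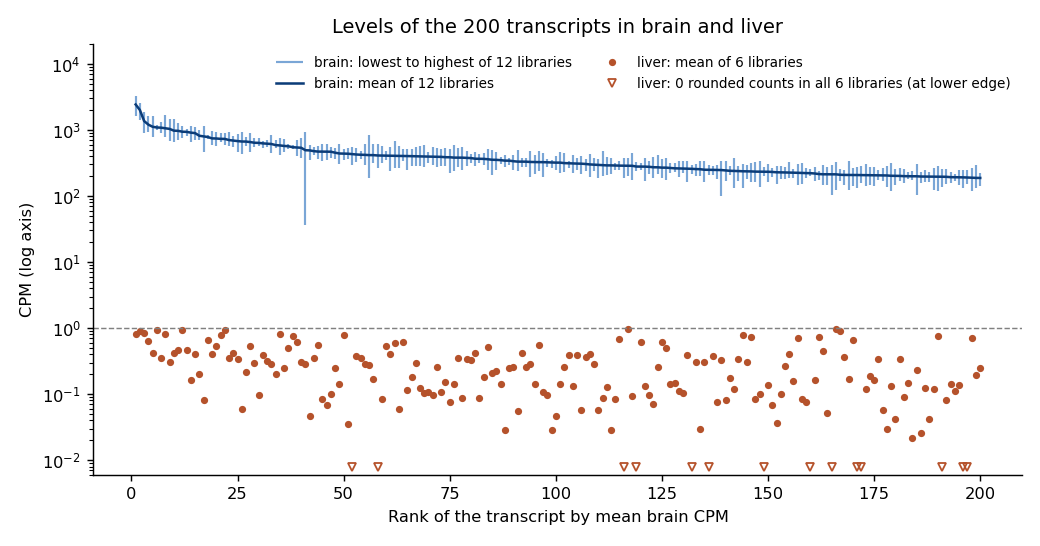
Levels of the 200 transcripts, ordered along the horizontal axis by mean brain CPM; the vertical axis is CPM on a log scale. The dark line is the mean of the 12 brain libraries, the vertical bars run from the lowest to the highest brain library, the dots are the mean of the 6 liver libraries, the open triangles mark the 14 transcripts whose liver counts all rounded to 0, and the dashed line is the 1 CPM limit. The brain means fall from 2426 to 187 CPM while every liver mean lies under the limit, and 1 long bar belongs to ENSONIT00000015402.

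The leading transcript, ENSONIT00000006241, was a thalamus-pituitary-leaning one. It had 1691 and 1615 CPM in Cerebellum Control, 1887 and 2024 CPM in Cerebellum T2 and 1815 and 2081 CPM in Cerebellum T3. It had 3226 and 2789 CPM in Thalamus-pituitary Control, 3033 and 3024 CPM in Thalamus-pituitary T2 and 3110 and 2819 CPM in Thalamus-pituitary T3. All 6 thalamus-pituitary libraries were thus above all 6 cerebellum libraries. In the cerebellum the libraries of both hormones lay above both controls, and the T2 and T3 libraries overlapped. In the thalamus-pituitary the groups overlapped.

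SLC1A2 came next and leaned the same way, with a ratio of cerebellum to thalamus-pituitary of 0.665. The libraries of Cerebellum Control had 1820 and 1744 CPM, those of Cerebellum T2 1593 and 1546 CPM, and those of Cerebellum T3 1458 and 1422 CPM. In the thalamus-pituitary the Control libraries had 2549 and 2353 CPM, T2 2412 and 2398 CPM, and T3 2418 and 2280 CPM. The cerebellum groups did not overlap and stood in the order Control, T2, T3, whereas the thalamus-pituitary groups overlapped.

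The remaining 8 of the 10 highest were known by identifier only. Leaning to the cerebellum were ENSONIT00000012919 (mean 1361 CPM, ratio 1.77), ENSONIT00000020083 (1201 CPM, ratio 1.38), ENSONIT00000001426 (1115 CPM, ratio 1.69), ENSONIT00000012777 (1036 CPM, ratio 1.65) and ENSONIT00000022338 (974 CPM, ratio 1.66). Leaning to the thalamus-pituitary were ENSONIT00000013647 (1081 CPM, ratio 0.817) and ENSONIT00000009573 (1059 CPM, ratio 0.679). ENSONIT00000016298 (1088 CPM, ratio 1.05) was nearly level, and its 12 brain libraries spanned only 1013 to 1189 CPM.

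In the liver the same transcripts were traces, but few were strictly absent. The summed level of the 200 was 118 and 46.1 CPM in the Liver Control libraries, 49.2 and 38.5 CPM in Liver T2 and 46.4 and 37.1 CPM in Liver T3, against 76810 CPM or more in every brain library. These sums rest on 1464 estimated counts in all. At least 1 count was present for 186 of the 200 transcripts in at least 1 liver library, 25 had counts in all 6 libraries and 14 had none in any. A count of 0 allows up to 3 counts, that is 0.456 to 1.43 CPM depending on the liver library, so the 14 could still lie near the 1 CPM limit in a single library (this limit covers counting error only). The word absent therefore holds for them only within that limit, and the whole group is better described as under 1 CPM in the liver.

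Liver Control 1 stood apart from the other liver libraries: its sum of 118 CPM was the highest, it was the shallowest liver library with 2090615 estimated counts, and 104 of the 200 transcripts had their highest liver CPM there. SLC1A2 had 3.06 CPM in Liver Control 1, 0.967 CPM in Liver Control 2, 0.280 and 0.998 CPM in Liver T2, and 0.00 and 0.197 CPM in Liver T3. The liver means reached 0.5 CPM for 35 transcripts with Liver Control 1 and for 25 without it. The origin of these traces was not tested. In bulk tissue, fewer cells of a type and less RNA per cell cannot be told apart.

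The liver hormone comparisons could not be read for these transcripts. None of the 200 passed the filter on low counts there, so 0 were tested against a background of 21.0% of transcripts called for Liver T2 against Control and 13.6% for Liver T3 against Control.

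The transcripts around the limits show how sharply the group was drawn. The last one in, ENSONIT00000018887 with 187.4 CPM, was followed by ENSONIT00000025300 with 186.7 CPM. The highest liver mean inside was 0.979 CPM (ENSONIT00000005023), and the lowest outside among transcripts as abundant in the brain was 1.05 CPM (ENSONIT00000007135, 1232 CPM in the brain). The region ratios next to the limits were 0.513 inside (ENSONIT00000018633) and 0.493 outside (ENSONIT00000011467) at the lower end, and 1.998 inside (ENSONIT00000001925) and 2.03 outside (ENSONIT00000025141) at the upper end. Of the 968 transcripts whose mean brain CPM was at least that of the last one in, 645 were left out by the liver condition, 63 by a ratio above 2 and 60 by a ratio below 0.5.

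Within those limits, the 200 transcripts were spread evenly between the regions. The mean was higher in the cerebellum for 92 and higher in the thalamus-pituitary for 108, and the median ratio was 0.942. For 79 transcripts the ratio was between 0.8 and 1.25. All 6 cerebellum libraries lay above all 6 thalamus-pituitary libraries for 47 transcripts, the reverse held for 59, and the regions overlapped for 94. The share of all transcripts with regions apart was not computed, and the ratio limits bound these counts, so they only describe the 200. SLC1A2 was among the 59. MARCKSL1 was among the 94, since its lowest thalamus-pituitary library (362 CPM, T3) lay below its highest cerebellum library (429 CPM, Control), although the thalamus-pituitary libraries were above the cerebellum libraries under each treatment taken alone.

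**Figure D2:**
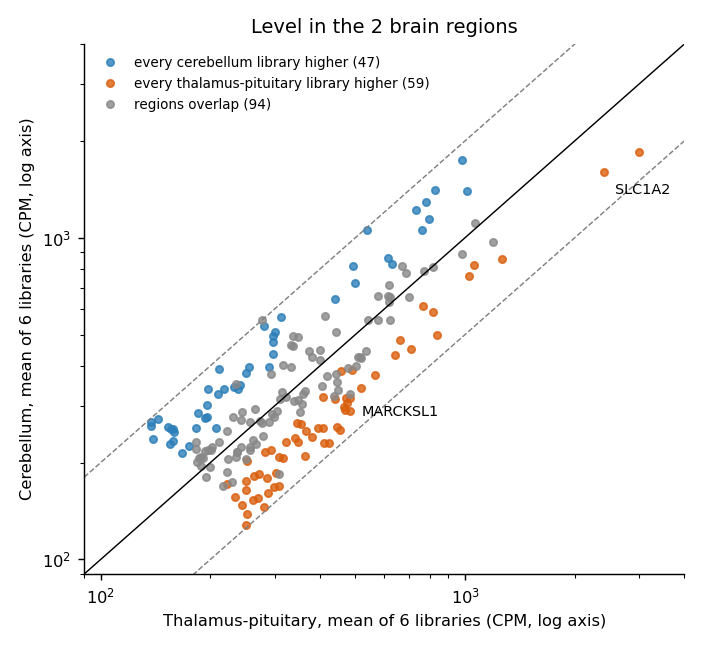
Mean level of each of the 200 transcripts in the thalamus-pituitary (horizontal) and the cerebellum (vertical), each over 6 libraries, in CPM on log axes. The solid line marks equal levels, the dashed lines the ratios of 0.5 and 2 that bounded the choice, and the colours show that 47 transcripts were higher in every cerebellum library, 59 in every thalamus-pituitary library and 94 overlapped. The matching share over all transcripts was not computed.

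Replicate libraries were close. The median absolute log2 difference in level between the libraries of a group was 0.12 in Cerebellum Control, 0.18 in Cerebellum T2, 0.10 in Cerebellum T3, 0.12 in Thalamus-pituitary Control, 0.07 in Thalamus-pituitary T2 and 0.11 in Thalamus-pituitary T3. Over all transcripts tested, the same medians were 0.26, 0.29, 0.22, 0.25, 0.21 and 0.24. Across all 12 brain libraries the highest level was a median of 1.75 times the lowest, under 1.5 times for 54 transcripts and under 2 times for 142.

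Only 3 of the 200 differed more than 2-fold between replicates anywhere in the brain, and 1 of them did so by an order of magnitude. ENSONIT00000015402 (rank 41), picked out after its values were seen, had 63.7 and 846 CPM in Cerebellum Control, 934 and 811 CPM in Cerebellum T2, and 65.1 and 714 CPM in Cerebellum T3. It had 533 and 473 CPM in Thalamus-pituitary Control, 505 and 349 CPM in Thalamus-pituitary T2, and 577 and 36.5 CPM in Thalamus-pituitary T3. The 3 low libraries held 362, 241 and 107 counts, against 2037, 3253 and 3341 in their partners, so counting error does not cover the gaps, the widest of which was 15.8-fold. The low and high libraries did not follow region, treatment or replicate number. The other transcripts with such gaps were ENSONIT00000012289 (216 and 98.9 CPM in Cerebellum Control) and ENSONIT00000005023 (315 and 157 CPM in Cerebellum T2, 158 and 323 CPM in Cerebellum T3).

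A further feature the choice did not use is that 14 of the 200 had consecutive identifiers, forming 7 pairs. In 5 pairs both transcripts leaned to the same region, for example ENSONIT00000016887 and ENSONIT00000016888 with ratios of 1.47 and 1.36. In the other 2 pairs they leaned apart: ENSONIT00000002971 had a ratio of 0.779 and ENSONIT00000002972 of 1.42, and ENSONIT00000009099 a ratio of 0.697 and ENSONIT00000009100 of 1.61. Whether the transcripts of a pair belong to 1 gene is not given in the sources used here; where they do, reads from shared sequence were divided between them by the estimation of counts.

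The main question asked of these transcripts was whether they moved with the hormones. In the cerebellum after T3, the 200 were shifted slightly downwards as a group, and no single one passed the test. The median log2 fold change against Control was -0.09, with 139 of 200 below 0, against a median of 0.01 over all 15770 transcripts tested, of which 48.5% were below 0. The quasi-likelihood test of edgeR called 0 of the 200 at an adjusted p under 0.05, with 0.0% of all transcripts called, and the smallest adjusted p among the 200 was 0.328. At an unadjusted p under 0.05 there were 37 (10.8% of all transcripts), 26 of them lower (5.75% of all were lower at that p). The other tests called more. DESeq2 called 14 of the 187 to which it gave an adjusted p, 13 of them lower (7.81% of all 1140 transcripts with an adjusted p). The exact test after the same filter called 2 of the 200 (1.17% of all). Neither test called the 200 more often than all transcripts.

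Counted by library, both T3 libraries lay below both Control libraries for 82 of the 200 in the cerebellum, against 21.4% of all transcripts, and above both for 26, against 22.3%. The changes were small: 5 of the 200 moved by more than 0.5 on the log2 scale and none by more than 1.

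The clearest single changes in the cerebellum after T3 were in both directions. ENSONIT00000009067 went from 352 and 342 CPM in Control to 246 and 238 CPM in T3. Its groups did not overlap, which was a condition for naming a transcript by its p. Its log2 fold change was -0.55 with an SE of 0.097 (adjusted p = 0.328 by the quasi-likelihood test). ENSONIT00000001638 went the other way, from 131 and 131 CPM to 193 and 193 CPM, with a log2 fold change of 0.53, an SE of 0.096 and an adjusted p of 0.328 by the same test. Over the alternatives tried, the adjusted p of ENSONIT00000009067 ranged from 0.00288 to 0.555 and that of ENSONIT00000001638 from 0.0163 to 0.534, so whether either is called depends on the test. ENSONIT00000009996 was lower, with 506 and 516 CPM in Control and 386 and 358 CPM in T3 (log2 fold change -0.48, SE 0.0996).

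SLC1A2 was lower in both cerebellum T3 libraries than in either control, at a log2 fold change of -0.33 with an SE of 0.086 and a 95% interval from -0.54 to -0.12. Its adjusted p was 0.346 by the quasi-likelihood test and 0.0068 by DESeq2, and over all alternatives it ranged from 0.0068 to 0.663. The direction was kept when each library was left out in turn, with log2 fold changes between -0.37 and -0.29. MARCKSL1 had 325 and 429 CPM in Cerebellum Control and 267 and 294 CPM in Cerebellum T3, groups that did not overlap, at a log2 fold change of -0.45 with an SE of 0.148 (adjusted p = 0.387).

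In the thalamus-pituitary after T3, the picture was much the same. The median log2 fold change of the 200 was -0.08, again with 139 below 0, against a median of 0.00 over all 16996 transcripts tested, of which 50.0% were below 0. The quasi-likelihood test called 0 of the 200, with 0.00588% of all transcripts called and a smallest adjusted p of 0.432 among the 200. At an unadjusted p under 0.05 there were 24 (8.84% of all), and 22 of these were lower (4.71% of all). DESeq2 called 6 of the 200, all lower (3.7% of the 1620 transcripts with an adjusted p), and the exact test after the filter called 1 (0.741% of all). Again neither test called the 200 more often than all transcripts. Both T3 libraries lay below both controls for 83 transcripts, against 20.8% of all, and above both for 22, against 20.7%.

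MARCKSL1 had the smallest p of the 200 in this comparison. It had 553 and 668 CPM in Thalamus-pituitary Control and 406 and 362 CPM in Thalamus-pituitary T3. The groups did not overlap, and the log2 fold change was -0.70 with an SE of 0.138 and a 95% interval from -1.03 to -0.37. The adjusted p was 0.432 by the quasi-likelihood test, 0.000139 by DESeq2 and 0.00756 by the filtered exact test, ranging from 0.000139 to 0.719 over all alternatives; with single libraries left out the log2 fold change stayed between -0.82 and -0.57. A transcript outside the 200 carries the same symbol, ENSONIT00000010386, with mean levels of 39.9 CPM in the cerebellum, 71.8 CPM in the thalamus-pituitary and 9.95 CPM in the liver. Its log2 fold change here was -0.93 with an SE of 0.204 (adjusted p = 0.463 by the quasi-likelihood test). It was smaller against Control elsewhere in the brain: -0.34 (SE 0.142) for Thalamus-pituitary T2, -0.26 (SE 0.246) for Cerebellum T3 and 0.06 (SE 0.255) for Cerebellum T2. If the sequences of the MARCKSL1 transcripts are alike, reads may have been divided between them.

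Below MARCKSL1 came ENSONIT00000001081, with 493 and 468 CPM in Control against 374 and 326 CPM in T3, and ENSONIT00000002481, with 541 and 520 CPM against 416 and 388 CPM. Both sets of groups were apart, as the choice of named transcripts required. The log2 fold changes were -0.49 (SE 0.123) and -0.43 (SE 0.111), each with an adjusted p of 0.513 by the quasi-likelihood test. SLC1A2, by contrast, was at -0.10 with an SE of 0.114 and a 95% interval from -0.37 to 0.18. The T3 response of SLC1A2 differed between the regions by 0.24 on the log2 scale with an SE of 0.135 (adjusted p = 1.000 for the interaction of region and T3), so no difference between the regions was shown for it.

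**Figure D3:**
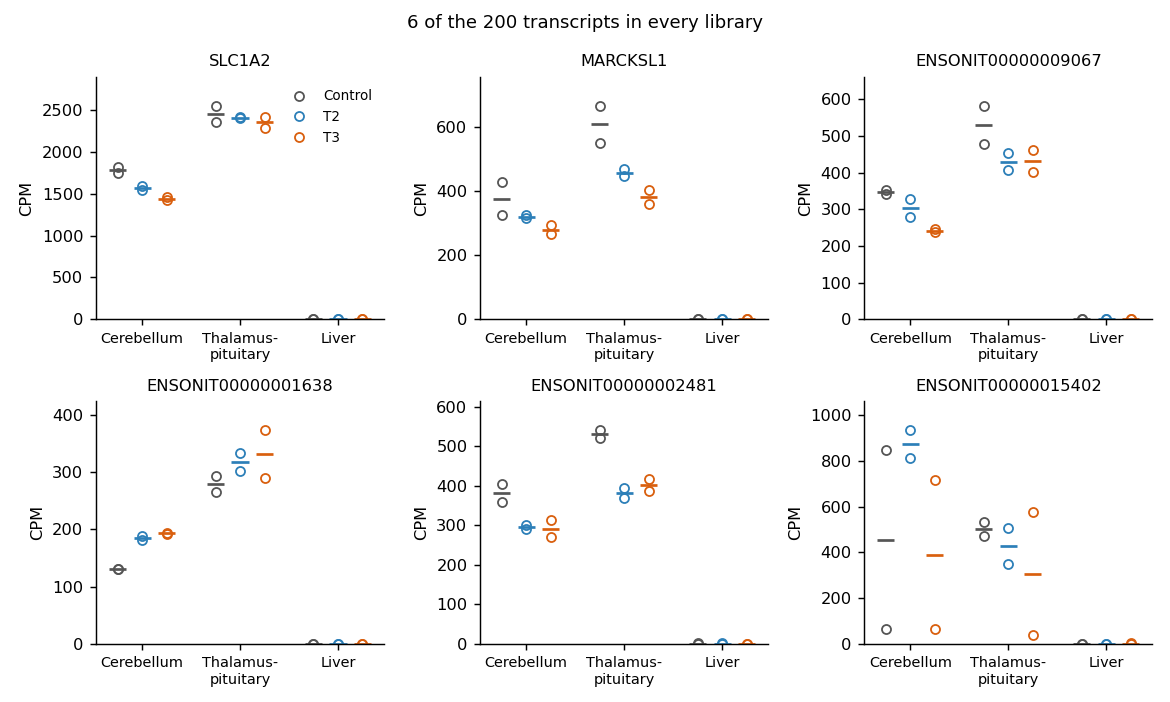
Levels of 6 of the 200 transcripts in CPM on linear axes that start at 0, one panel each. Open circles are single libraries, 2 per group, and short lines are group means, for Control (grey), T2 (blue) and T3 (orange) in the cerebellum, the thalamus-pituitary and the liver. SLC1A2, MARCKSL1, ENSONIT00000009067 and ENSONIT00000002481 sit lower after T3 in the cerebellum, ENSONIT00000001638 sits higher, and ENSONIT00000015402 has 3 low libraries scattered over groups.

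The T3 comparisons of the 2 regions share no library, but they are not from separate fish: each group had 8 fish, and the 2 pools of 4 took all of them for each region. Whether pool 1 held the same fish in both regions is not given in the sources used here. Across all transcripts, the differences between libraries 1 and 2 correlated between the regions at 0.25 in Control, 0.10 in T2 and 0.02 in T3. Of the 200 transcripts, 110 were lower in both regions (30.8% of all transcripts tested in both) and 32 higher in both (32.9% of all), while 29 were lower only in the cerebellum and 29 lower only in the thalamus-pituitary by the sign of the estimate. Both T3 libraries lay below both controls in each region for 48 transcripts, against 8.02% of all transcripts tested in both regions, and above them in each region for 9, against 8.53%. MARCKSL1, ENSONIT00000009067 and ENSONIT00000001257 (log2 fold changes of -0.55 and -0.38) were among the 48, and SLC1A2 was not, since its thalamus-pituitary groups overlapped. At an unadjusted p under 0.05 in each region, 12 were lower in both (1.14% of all) and 1 was higher in both (1.03% of all). Across the 200 transcripts, Pearson's r between the T3 changes of the regions was 0.57 and Spearman's rho 0.56, against 0.29 and 0.33 across 15196 transcripts. The 200 were chosen for a high level, while the 15196 reach down to the filter on low counts. A trait of the group and its level therefore cannot be told apart in this gap. Transcripts of 1 library and regions of the same fish are not independent, and these values are descriptions. The interaction test took the libraries of both regions as separate samples. No transcript of the 200 had a T3 response that differed between the regions by the interaction test of edgeR (0 called by that test and by DESeq2, with 0.0% and 0.0248% of all called; 1 at an unadjusted p under 0.05, against 4.28% of all).

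**Figure D4:**
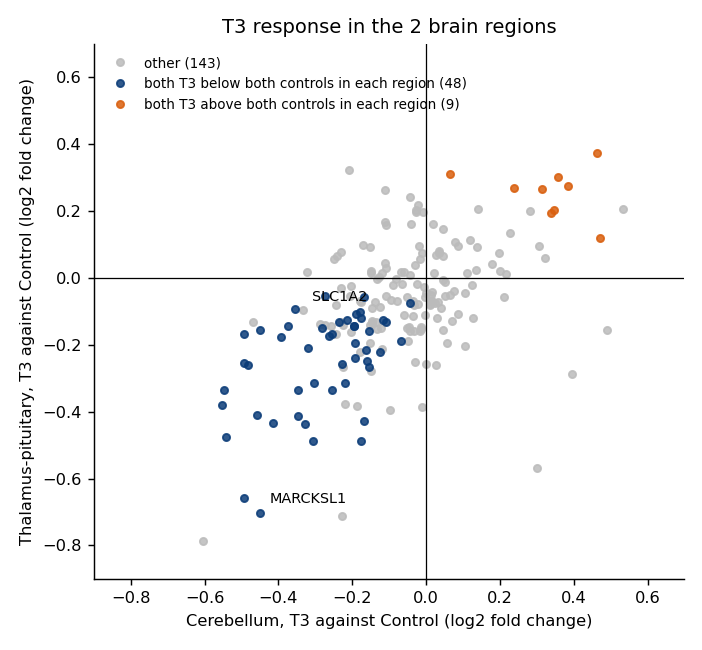
T3 response of the 200 transcripts in the cerebellum (horizontal) and the thalamus-pituitary (vertical), as log2 fold changes of T3 against Control from edgeR. Dark points are the 48 transcripts whose T3 libraries lay below both controls in each region, orange points the 9 that lay above, and grey points the others; the cloud is centred below and to the left of 0, at medians of -0.09 and -0.08.

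The T3 shift can be followed library by library. Relative to the control mean and to the same value over all transcripts tested, the median log2 level of the 200 was -0.11 in Cerebellum T3 1 and -0.11 in Cerebellum T3 2, and -0.09 and -0.08 in Thalamus-pituitary T3 1 and 2. It was -0.08 and 0.05 in the libraries of Cerebellum T2 and -0.02 and -0.01 in those of Thalamus-pituitary T2. All 4 T3 libraries were thus on 1 side, and the T2 libraries of the cerebellum were on opposite sides of 0.

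The median was below 0 at every level within the group. In 4 bins of 50 by rank, the median log2 change after T3 in the cerebellum was -0.06, -0.13, -0.08 and -0.07, and in the thalamus-pituitary -0.09, -0.12, -0.06 and -0.08. Among the 645 transcripts that were as abundant in the brain but averaged 1 CPM or more in the liver, a comparison added after the values were seen, the medians were -0.01 for the cerebellum and -0.03 for the thalamus-pituitary. Among the 123 that were as abundant and under 1 CPM in the liver but outside the region limits, they were -0.13 and -0.04. Among the lower-ranked transcripts that met the liver and region conditions, they were -0.03 and -0.04. No test of these differences between groups of transcripts was made.

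Among other gene lists, the blood sums were below both controls after either hormone, and the immediate-early sums were so only after T3. These lists were not alone in this. The astrocyte and radial glia, neuronal signalling kinase and oligodendrocyte (CNP alone) sums were also below both controls in both regions after either hormone. The synaptic vesicle sums and those of neuronal RNA-binding proteins and transcription factors were so only after T3. The same held for the skeletal muscle sums (TPM1 alone) and the hepatocyte sums, which were 53.7 CPM or less in every brain library. The thyroid hormone signalling sums were so after neither. HBB was the largest part of every blood sum and EGR1 of every immediate-early sum in the brain. The 3 blood transcripts that carried a symbol (ALAS2, HBB and HBZ, of 13 blood genes listed) summed to 2248 and 1879 CPM in Cerebellum Control, 1108 and 882 CPM in Cerebellum T2 and 1202 and 837 CPM in Cerebellum T3. They summed to 1981 and 1402 CPM in Thalamus-pituitary Control, 874 and 941 CPM in Thalamus-pituitary T2 and 866 and 772 CPM in Thalamus-pituitary T3. The libraries of both hormones were below both controls in each region, and the T2 and T3 sums overlapped in the cerebellum but not in the thalamus-pituitary. The 9 immediate-early transcripts with a symbol (FOS, JUN, JUNB, EGR1, IER2, NPAS4 and DUSP1, of 16 genes listed), which follow neuronal activity and handling, summed to 970 and 1936 CPM in Cerebellum Control, 420 and 1043 CPM in T2 and 283 and 431 CPM in T3, and to 625 and 881 CPM, 356 and 704 CPM, and 382 and 549 CPM in the thalamus-pituitary. All these symbols came from the lists of hormone-responsive transcripts. Their part in the shift of the 200 was not tested.

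After T2 the median of the group stayed near 0. In the cerebellum the median log2 fold change of T2 against Control was -0.01 (104 of 200 below 0), as in the thalamus-pituitary (-0.01, 107 of 200 below 0), against 0.00 over all transcripts in both. The quasi-likelihood test called 0 of the 200 in either region, with 0.0% of all transcripts called in each, and at an unadjusted p under 0.05 there were 14 in the cerebellum (4.96% of all) and 14 in the thalamus-pituitary (6.16% of all). DESeq2 called 0 in the cerebellum (0.101% of all) and 1 in the thalamus-pituitary (0.1% of all), and the exact test after the filter called 0 in both (0.301% and 0.429% of all). Both T2 libraries lay below both controls for 34 transcripts in the cerebellum (17.4% of all) and for 55 in the thalamus-pituitary (18.6% of all), and above both for 37 (17.5%) and 40 (19.5%).

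A few single transcripts stood out after T2. ENSONIT00000004476 had 207 and 193 CPM in Cerebellum Control and 301 and 292 CPM in Cerebellum T2, at a log2 fold change of 0.56 with an SE of 0.113 (adjusted p = 0.917). ENSONIT00000001638 had 188 and 181 CPM in Cerebellum T2, against 131 and 131 CPM in Control (log2 fold change 0.49, SE 0.110). ENSONIT00000009996 was lower, with 386 and 380 CPM against 506 and 516 CPM (log2 fold change -0.42, SE 0.106). In each case the T2 libraries stood clear of the controls, which was a condition for naming these transcripts. The T3 libraries of ENSONIT00000004476 in the cerebellum, at 277 and 287 CPM, were also above those controls, which both hormones were compared with.

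In the thalamus-pituitary after T2, ENSONIT00000002481 had 394 and 369 CPM against 541 and 520 CPM in Control, at a log2 fold change of -0.51 with an SE of 0.094. Its adjusted p was 0.803 by the quasi-likelihood test and 0.00508 by DESeq2, and it ranged from 0.00508 to 0.998 over all alternatives. ENSONIT00000009575 had 250 and 227 CPM against 301 and 420 CPM (log2 fold change -0.63, SE 0.167). MARCKSL1 had 470 and 448 CPM against 553 and 668 CPM, at a log2 fold change of -0.44 with an SE of 0.119 and an adjusted p of 0.803. SLC1A2 was at -0.19 in the cerebellum (95% interval from -0.44 to 0.06) and at -0.06 in the thalamus-pituitary (95% interval from -0.28 to 0.16), and neither passed the test.

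The difference between the regions in the T2 response was called for 0 of the 200 by edgeR and by DESeq2 (0.0% and 0.0125% of all), and 5 had an unadjusted p under 0.05 (3.7% of all). For MARCKSL1 that difference was -0.22 on the log2 scale with an SE of 0.210, and for T3 it was -0.25 with an SE of 0.215, the thalamus-pituitary having the lower value in both.

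**Figure D5:**
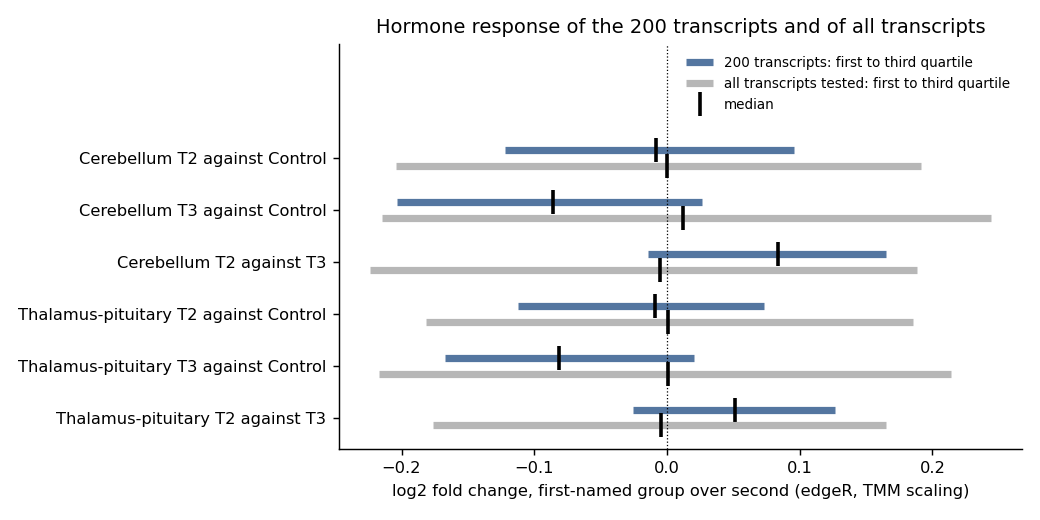
Distribution of log2 fold changes (edgeR, TMM scaling) in the 6 comparisons within a brain region. Blue bars run from the first to the third quartile of the 200 transcripts, grey bars do so for all transcripts tested, and black ticks are medians. The blue bars are displaced to the left for T3 against Control and to the right for T2 against T3, and centred near 0 for T2 against Control.

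The hormones themselves were compared directly at the same dose and time. The estimate was higher with T2 than with T3 for most of the 200. The median log2 difference of T2 over T3 was 0.08 in the cerebellum (142 of 200 above 0) and 0.05 in the thalamus-pituitary (136 of 200 above 0). Over all transcripts the medians were -0.01 and 0.00. The T3 libraries were the same as those compared with Control, so these values are not independent of the T3 shift. The quasi-likelihood test called 0 of the 200 in each region, with 0.0128% and 0.0541% of all transcripts called, and at an unadjusted p under 0.05 there were 20 in the cerebellum (6.24% of all), 19 of them higher with T2, and 15 in the thalamus-pituitary (5.87% of all), 13 of them higher with T2. DESeq2 called 2 in the cerebellum (0.292% of all) and 1 in the thalamus-pituitary (0.267% of all), all higher with T2, and the exact test after the filter called 2 (0.702%) and 1 (0.559%). Both T2 libraries were above both T3 libraries for 73 transcripts in the cerebellum (19.0% of all) and 66 in the thalamus-pituitary (18.1% of all), and below them for 16 (19.2%) and 19 (18.5%).

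In the cerebellum ENSONIT00000011722 had 507 and 426 CPM with T2 and 308 and 324 CPM with T3, a log2 difference of 0.58 with an SE of 0.115. ENSONIT00000000212 had 545 and 616 CPM with T2 and 414 and 396 CPM with T3, a log2 difference of 0.55 with an SE of 0.111, and both had an adjusted p of 0.597. ENSONIT00000001925 in the thalamus-pituitary had the smallest p of all these comparisons, with 338 and 287 CPM after T2 and 186 and 200 CPM after T3. Its log2 difference was 0.69 with an SE of 0.102, at an adjusted p of 0.279 by the quasi-likelihood test that ranged from 0.000664 to 0.945 over the alternatives. Its controls, at 235 and 416 CPM, were both above its T3 libraries and lay on either side of its T2 libraries. Its log2 fold change of T3 against Control in this region was -0.79, the lowest of the 200. The adjusted p of that change was 0.517 by the quasi-likelihood test and 0.0402 by DESeq2.

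The T2 and T3 levels of the named genes were not separated by the test, which does not show that the hormones act alike on them. For SLC1A2 the difference of T2 over T3 was 0.15 in the cerebellum (95% interval from -0.06 to 0.36) and 0.03 in the thalamus-pituitary (95% interval from -0.15 to 0.20). For MARCKSL1 it was 0.23 in the cerebellum (95% interval from -0.02 to 0.47) and 0.25 in the thalamus-pituitary (95% interval from 0.02 to 0.49), in both regions with the T2 libraries above the T3 libraries.

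Genes known for the same roles show where SLC1A2 stood. Of 27 astrocyte and radial glia genes listed, 9 carried a symbol in these files, and SLC1A2 was the only one among the 200. The liver condition left out 5 of them, among them SLC1A3, the other main glial glutamate transporter, with 131 CPM in the liver, and FABP7, the brain fatty acid binding protein of radial glia, with 54.1 CPM. Each transcript was counted at the first condition it failed, in the order liver, region ratio and level. The brain means of SLC1A3, FABP7, ALDH1L1 and SOX9 were 54.7, 168, 43.5 and 14.5 CPM, so their level was too low as well. PTN, at 317 CPM, failed on the liver alone. Another 3 met the liver and region conditions at too low a level, the highest being SLC6A11, a GABA transporter, with 127 CPM in the cerebellum, 165 CPM in the thalamus-pituitary and 0.0726 CPM in the liver. Of these 9 transcripts 0 were called by the quasi-likelihood test in any of the 6 comparisons; after T3, 7 were below 0 in the cerebellum, 3 of the 9 having an unadjusted p under 0.05, and 8 in the thalamus-pituitary, 6 of the 9 having an unadjusted p under 0.05. That count is not independent evidence of a direction, since a symbol was given only to transcripts chosen as responsive in these samples.

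Some neuronal genes with a symbol were near the limits and others were far outside them. CNTN2 stood at rank 657, ANK2 at rank 1370, and GRID2IP had a region ratio of 33.8. Of 50 synaptic vesicle and exocytosis genes listed, 7 carried a symbol, on 10 transcripts. By the first condition failed, the liver left out 5 of these, the region ratio 1 and the level 2, and the others were those of SNAP25. Among those left out by the liver, the NSF transcript, a DMXL2 transcript and a STXBP5 transcript were also too low. Their brain means were 42.6, 97.2 and 64.2 CPM. The transcript left out by the ratio, also of STXBP5, was too low as well, at 23.7 CPM. BSN, the presynaptic scaffold bassoon, had means of 190 CPM in the cerebellum, 149 CPM in the thalamus-pituitary and 0.0523 CPM in the liver and stood at rank 230, so it missed the group by level alone, and RIMS1, an organiser of vesicle release, averaged 439 CPM but 4.22 CPM in the liver. MAPT, the axonal microtubule protein tau, averaged 139 CPM and stood at rank 287. GAP43, a growth cone protein, failed on the region ratio with 71.5 CPM in the cerebellum and 211 CPM in the thalamus-pituitary. Its brain mean of 141 CPM was also too low. None of the pituitary hormone and retina genes listed carried a symbol, so the labels of the thalamus-pituitary libraries could not be checked against them, while 14 hepatocyte transcripts summed to 30749 CPM or more in the liver libraries and to 53.7 CPM or less in the brain libraries. CARTPT, a hypothalamic peptide gene, had 62.8 CPM in Cerebellum T3 2 and 0 in the other cerebellum libraries. SLC6A4 (ENSONIT00000010054) had 28.8 CPM there and 0.253 CPM or less in the others. GAP43 and HOMER1, higher in the thalamus-pituitary, did not peak there (59.2 and 12.2 CPM), but a MAP2 transcript did (16.8 CPM). GRID2IP had 16.2 and 12.8 CPM in Thalamus-pituitary T3 against 2.54 and 2.69 CPM in Control. Whether dissection differed was not tested.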

How the data were processed

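Total RNA was extracted, and 18 libraries (9 groups of 2) were made from it with the Illumina TruSeq RNA kit and sequenced. The authors checked reads with FastQC, aligned them with Bowtie 1.1.2 to the Ensembl coding sequences of Orenil1.0, and deposited estimated counts (the effective counts of eXpress), which divide reads among similar transcripts and need not be whole. Files of the authors' own comparisons (log2 fold changes and p-values) were not used. Here CPM was computed from file totals. Counts were rounded and tested with edgeR 4.0.16 in R 4.3.3 (filterByExpr with a minimum count of 10 and summed count of 15, TMM scaling, quasi-likelihood test, Benjamini-Hochberg adjustment over all transcripts tested, threshold 0.05) on the 4 libraries of each comparison; a difference between regions was an interaction over 8 libraries. The SE was the log2 fold change divided by the root of the F statistic, and 95% intervals used the matching t distribution. DESeq2 1.42.0, the exact test, other scalings, filters, fits and left-out libraries were alternatives. Scripts were tested on simulated data. Replicate libraries are separate pools or fish per the study's methods. Named transcripts were those with a symbol, the 10 highest, up to 3 of smallest p per comparison with groups apart, and those nearest the limits; by identifier, at most 2 higher and 2 lower per comparison were named. The transcripts, lists and tests were chosen with earlier results of these data known. Depth ran from 1568851 to 6585242 counts, and its limits cover counting error only.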

Additional observations from a re-analysis of the deposited data

How the results depend on the processing

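No one of the 200 transcripts passed the quasi-likelihood test, and this count was unchanged by scaling on library totals or by RLE size factors, by unrounded counts, a fit of all 6 libraries of a tissue and a fit of both regions together. DESeq2 called 14 for Cerebellum T3 against Control, 6 for Thalamus-pituitary T3 against Control, 1 for Thalamus-pituitary T2 against Control, 2 for Cerebellum T2 against T3 and 1 for Thalamus-pituitary T2 against T3. The exact test called 2, 1, 0, 2 and 1 for the same comparisons after the filter and 2, 1, 0, 1 and 1 without it. The quasi-likelihood test without a filter called 2 for Cerebellum T3 against Control, 1 for Cerebellum T2 against Control and 1 for Cerebellum T2 against T3. The share of all transcripts called is not given for the tests without a filter, so those calls are not set against a background here. The cause of the differences between the tests was not tested.

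Each library was also left out in turn, which left 1 library in its group, so only effect sizes are given for those fits. The medians then ranged from -0.0898 to -0.0638 for Cerebellum T3 against Control, -0.112 to -0.0710 for Thalamus-pituitary T3 against Control, -0.0811 to 0.0510 for Cerebellum T2 against Control, -0.0248 to -0.0020 for Thalamus-pituitary T2 against Control, 0.0240 to 0.132 for Cerebellum T2 against T3 and 0.0537 to 0.0657 for Thalamus-pituitary T2 against T3. The direction of SLC1A2 turned for Thalamus-pituitary T2 against Control (-0.129 to 0.00575, the latter without Control 1) and T2 against T3 (-0.0275 to 0.0955, the former without T3 2).

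With scaling by the library total the medians were -0.0579 for Cerebellum T3 against Control, -0.0456 for Thalamus-pituitary T3 against Control, 0.0236 for Thalamus-pituitary T2 against Control and 0.0548 for Thalamus-pituitary T2 against T3, so that 124 and 128 of the 200 were lower after T3. By library totals, the median log2 level of all transcripts tested was itself above the control mean. It was so by 0.03 and 0.06 in the Cerebellum T3 libraries and by 0.03 and 0.05 in the Thalamus-pituitary T3 libraries. These medians of the 200 alone therefore do not show a smaller shift relative to all transcripts. For the 100 highest transcripts the T3 medians were -0.110 in the cerebellum and -0.0993 in the other region. Members chosen by TMM-scaled CPM gave -0.0584 for Cerebellum T3 against Control and 0.0455 for Thalamus-pituitary T2 against T3, and those with a liver mean under 0.5 CPM (of which 165 were among the 200) gave -0.0665, -0.0629 for Thalamus-pituitary T3 against Control and 0.0447.

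Within a tissue, the differences between libraries 1 and 2 of a group correlated with those of another group at -0.20 to 0.16, and between the regions at 0.02 to 0.25 within a treatment; with 2 pairs in a comparison the numbers were not taken as pairing the samples. With the replicate block 0 of the 200 were called in every comparison, and with the crossed block, added after the data were seen for Cerebellum T2 against Control where the correlation was -0.20, 0 were called as well (16 at an unadjusted p under 0.05). With 2 libraries a group, changes of the size of these medians were not detectable in single transcripts.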
